A study of Sus scrofa domesticus with 8 samples.

Results

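The genes described here include many that carry the signal from G protein-coupled receptors through cyclic AMP to its kinase and transcription factors. They were chosen by name, as every gene whose platform symbol begins with ADCY, PDE, RGS, AKAP, GNB, GNG or CREB and a digit, with a G alpha or protein kinase subunit prefix, or is CREM, leaving out GNB2L1. The rule found 79 genes of the 10708 with a named feature on the array. Some of these match by name only and have other roles, given below. A feature is the set of probes that the array reports as 1 value, and a gene with several features, which held for 10 of the 79, was read from the feature with the highest mean. Granulosa cells, the somatic cells that surround the oocyte in the ovarian follicle, came from crossbred Landrace gilts, of which the study used 43, at median values of 170 days of age and 98 kg of weight. RNA was measured at 0 h, before culture, and after 48 h, 96 h and 144 h in DMEM with 4 mM glutamine and 2% fetal bovine serum at 37 °C and 5% CO2, with 2 arrays per time and 8 in all. The labels tell the groups apart only by the time of culture, and no label names an added hormone or receptor agonist. They give the same medium with gentamicin, penicillin and streptomycin for all groups, although the 0 h cells were taken before culture. In comparisons with 0 h, the time of culture therefore cannot be told apart from plating and exposure to the medium. The labels do not tell if the pair of arrays at a time represents different animals, pools or culture dishes. All p-values therefore rest on the array-to-array spread, which may be purely technical.

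In granulosa cells the receptors for follicle-stimulating and luteinizing hormone act through Gs, which activates adenylyl cyclase, while Gi restrains it and Gq acts through phospholipase C. RGS proteins shorten these signals by speeding GTP hydrolysis on G alpha subunits, and phosphodiesterases end them by hydrolysing cyclic AMP or cyclic GMP. Cyclic AMP releases the catalytic subunits of protein kinase A from regulatory subunits that A-kinase anchoring proteins (AKAPs) hold in place, and the kinase phosphorylates CREB and CREM, which bind the promoters of cyclic AMP target genes.

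Values below are log2 intensities as deposited, and a difference is the mean of the 2 arrays of the later time minus that of the earlier, with its standard error (SE) from limma's model over all 8 arrays. A member was called at an adjusted p below 0.05, with the adjustment over all 27558 features. Array medians ran from 4.52 to 4.63, and arrays of the same time correlated at 0.985, for 144 h, up to 0.997, for 96 h. Over the 79 genes, paired arrays differed with an SD of 0.119 at 96 h and 0.407 at 144 h, so the 144 h values were the least precise. The lower quartile of an array lay between 3.13 and 3.25, and a level near or under it is not shown to lie above background. No fold is given for a difference that starts or ends at such a level. Levels of different genes come from different probes and are not set against each other.

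The labelled cell type was checked with marker lists. At 0 h the granulosa markers HSD17B1, INHBA, FST and LHCGR had mean levels of 10.84, 11.60, 11.23 and 10.39, and the mean of the 8 measured granulosa markers was 8.77 and 8.83 on the 0 h arrays, 7.15 and 7.21 at 48 h, 5.59 and 5.53 at 96 h, and 5.46 and 5.65 at 144 h. Of these 8, 5 were called lower at 48 h than at 0 h and 7 at each of 96 h and 144 h. FSHR, CYP19A1, FOXL2, INHA and GATA4 were not analysed here. All 10 measured fibroblast and smooth muscle markers, RGS5 among them, were called higher at 48 h and at 96 h. At 144 h the list had 9 higher and 1 lower. Their mean was 5.49 and 5.56 at 0 h, 8.86 and 8.82 at 48 h, 9.49 and 9.49 at 96 h, and 10.01 and 9.91 at 144 h. Of 8 oocyte markers 7 were lower at every later time, with a mean of 5.82 and 5.71 at 0 h and of 3.92 to 4.18 on the later arrays. Of 7 macrophage and leukocyte markers, 1 was lower at 48 h, 5 at 96 h and 4 at 144 h, and CD14 was higher at both of the last times. Of 4 measured theca markers, HSD3B1 was higher and INSL3 lower at each later time. The mean of the 4 was 3.99 and 3.90 at 0 h and 5.03 to 5.28 on the later arrays. Their median differences from 0 h were only -0.09, 0.05 and -0.02 at 48 h, 96 h and 144 h. The 6 endothelial markers had means of 3.53 to 3.81 and the 3 red cell markers means of 2.73 to 3.23 on all arrays. The part of these marker shifts in the results below was not tested. In such bulk RNA a smaller number of cells of a type and less RNA per cell cannot be told apart.

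In each comparison with 0 h more members were called higher than lower, and the share called higher lay above that of all features. At 48 h, 23 members were higher, or 29.1%, where 15.2% of all features were, and 14 were lower, or 17.7%, where 14.8% of all features were. Without 0 h array 2 or without 48 h array 1, 8 were lower. At 96 h, 22 were higher (27.8%, against 19.0% of all features) and 16 lower (20.3%, against 22.3%), and without 0 h array 2 or 96 h array 1, 10 were lower. At 144 h, 26 were higher (32.9%, against 15.4%) and 13 lower (16.5%, against 16.7%). Among the 10708 named genes, which are closer to these members than features without a name, the shares called higher were 18.1%, 21.5% and 19.2% at the 3 times, and the shares called lower 15.8%, 23.4% and 17.6%. The median difference of the 79 members was 0.11 at 48 h, 0.12 at 96 h and 0.03 at 144 h, beside -0.04, -0.03 and -0.05 over all features. The F test over the 4 times called 50 members, or 63.3%, beside 47.5% of all features and 51.8% of named genes. No test of the set against other genes was made, and the comparisons with 0 h share the 0 h arrays. The shares of all features given here are also the background for the counts by role and by list below. Subunits of AMP-activated kinase, which match by name only, were 3, 3 and 5 of the members called higher at the 3 times. PDE12, which also matches by name only, was called higher at each, and of the CREB3 family 2, 1 and 1 were.

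**Figure D1:**
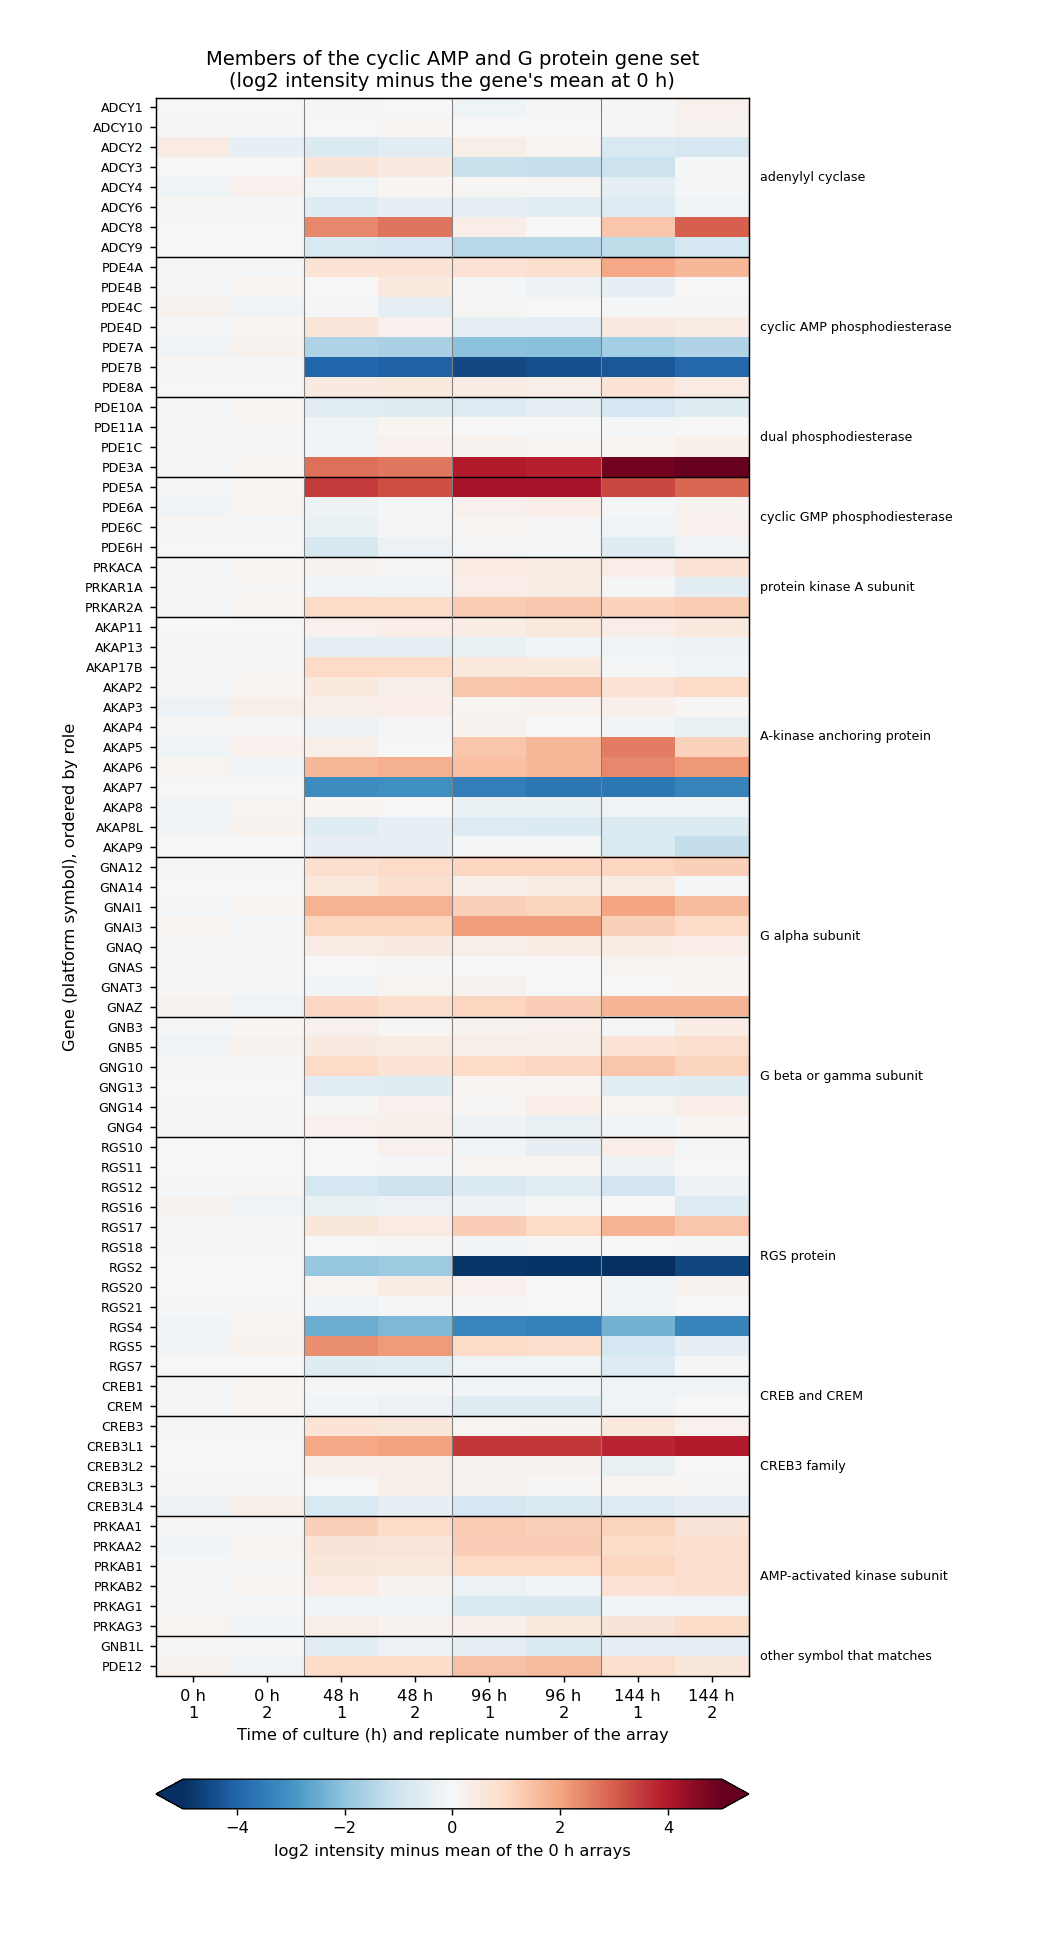
The log2 level of each of the 79 genes on each of the 8 arrays minus the gene's own mean at 0 h, with genes in rows grouped by role and arrays in columns ordered by time of culture; the colour scale ends at 5 log2 units each way, which PDE3A and RGS2 each pass on a 144 h array. Deep falls stand at PDE7B, AKAP7, RGS2 and RGS4 and deep rises at PDE3A, PDE5A and CREB3L1, while most other rows stay within 2 log2 units.

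**Figure D2:**
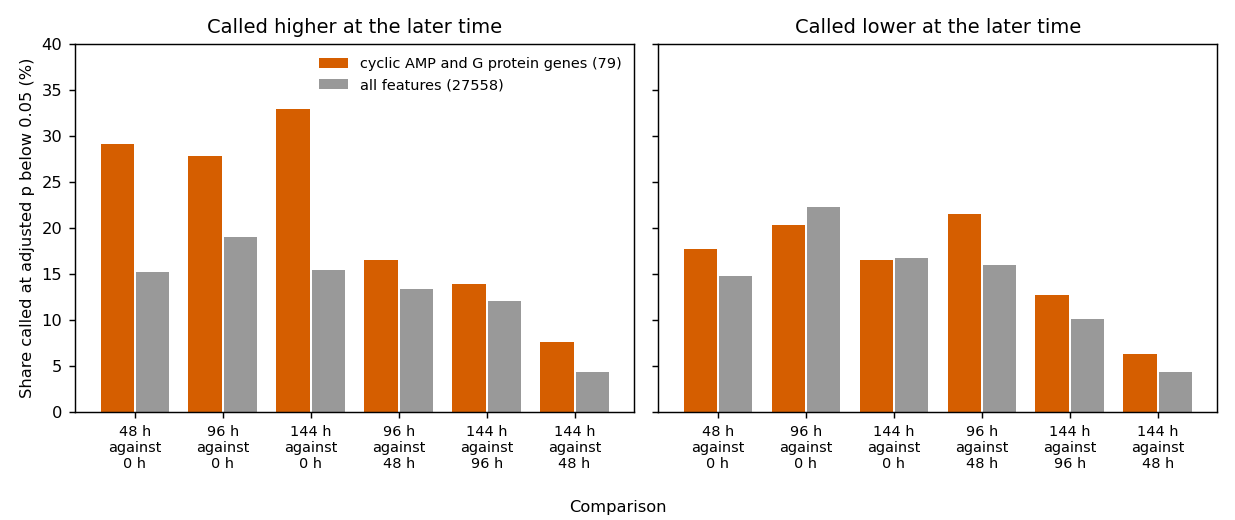
Percentage of the 79 members (left bar of each pair) and of all 27558 features (right bar) called higher or lower in each comparison of times, at an adjusted p below 0.05. The members' bars for higher stand above those of all features in the comparisons with 0 h, at 29.1%, 27.8% and 32.9%.

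In these comparisons every called member had both arrays of one time above or below both arrays of the other. This adds no support to the calls, since members not called could show it too, such as ADCY3, AKAP2 and PDE4D at 48 h. Of the 79 members, 19 were called higher at both 48 h and 144 h, 10 lower at both, and 33 at neither. RGS5 alone was called higher at 48 h and lower at 144 h. The other 16 were called at 1 of the 2 times. These joint counts were not made over all features, so no background stands beside them. A difference of at least 2-fold among the called members was counted 10 times upward and 5 downward at 48 h, 16 and 7 at 96 h, and 14 and 6 at 144 h. That was 19.0%, 29.1% and 25.3% of the members, beside 11.0%, 18.7% and 13.3% of all features.

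The receptors that feed the pathway were read from a list of 22 genes whose products raise cyclic AMP, of which 14 were measured. None was higher and 4 were lower at 48 h, while 96 h had 2 higher and 3 lower and 144 h had 2 of each. LHCGR, the luteinizing hormone receptor, measured 10.38 and 10.40 at 0 h, 10.27 and 10.21 at 48 h, 5.39 and 4.89 at 96 h, and 5.89 and 4.99 at 144 h. Its level thus stood near the 0 h value at 48 h, where it differed by -0.15 ± 0.28 (SE of 2 arrays per time, adjusted p = 0.738), and was 38.1-fold lower at 96 h. PTGER2, a prostaglandin E receptor that couples to Gs, was 1.53 ± 0.16 higher at 144 h (adjusted p = 0.000167), and CRHR1, the corticotropin-releasing hormone receptor, 1.48 higher. VIPR1, a receptor for vasoactive intestinal peptide, fell by 0.59.

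Receptors that couple to Gi or Gq moved in both directions. Of 21 measured of 26 listed, 7 were higher and 2 lower at 48 h, 6 higher and 5 lower at 96 h, and 6 higher and 3 lower at 144 h. AGTR1, the type 1 angiotensin II receptor, had mean levels of 3.40, 7.40, 8.75 and 9.10 at 0 h, 48 h, 96 h and 144 h, the first of them close to the lower quartile. LPAR1, a lysophosphatidic acid receptor, was 2.11 higher at 144 h. Both endothelin receptors were lower at 144 h, with differences of -2.04 for EDNRA and -1.70 for EDNRB.

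Among the G alpha subunits, the inhibitory and several other subunits rose and none of the 8 fell against 0 h. At 48 h 6 were higher, and at 96 h and 144 h 5 were. GNAS, which encodes the Gs alpha subunit that activates adenylyl cyclase, measured 9.72 and 9.86 at 0 h, 9.80 and 9.85 at 48 h, 9.75 and 9.78 at 96 h, and 9.92 and 9.87 at 144 h. The 48 h and 96 h arrays overlapped those of 0 h and both 144 h arrays lay just above them, but the gene was not called. The differences from 0 h were 0.04, -0.03 and 0.11, each with an SE of 0.11 (adjusted p = 0.847, 0.877 and 0.517). A second GNAS feature, at levels of 3.98 to 4.61, was not called at any time.

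GNAI1, an inhibitory alpha subunit, measured 7.95 and 8.14 at 0 h, 9.77 and 9.77 at 48 h, 9.25 and 9.15 at 96 h, and 10.02 and 9.63 at 144 h. Both arrays of each later time lay above both 0 h arrays, and the difference was 1.72 ± 0.15 at 48 h (adjusted p = 7.61e-05) and 1.78 ± 0.15 at 144 h (adjusted p = 4.72e-05), 3.44-fold at 144 h. GNAI3, a second inhibitory subunit, measured 5.86 and 5.63 at 0 h, 6.83 and 6.82 at 48 h, 7.83 and 7.84 at 96 h, and 6.92 and 6.69 at 144 h. It was highest at 96 h, 4.26-fold above 0 h, and 2.11-fold and 2.08-fold above it at 48 h and 144 h. A feature shared by GNAI2 and GNAI1 was left out, and GNAI2 was not analysed here.

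GNAZ, whose product belongs to the Gi family, measured 5.00 and 4.62 at 0 h, 5.84 and 5.68 at 48 h, 5.90 and 6.06 at 96 h, and 6.51 and 6.49 at 144 h. Its difference from 0 h was 1.69 ± 0.15 at 144 h (adjusted p = 6.28e-05), and it was 0.74 ± 0.15 higher at 144 h than at 48 h (adjusted p = 0.0193), a call that was lost when either 48 h array was left out (highest adjusted p = 0.12 over all settings). GNA12, a further alpha subunit, measured 7.58 and 7.69 at 0 h, 8.48 and 8.61 at 48 h, 8.71 and 8.70 at 96 h, and 8.72 and 8.82 at 144 h. Its 6 later arrays stood close together and all above 0 h, with a difference of 1.13 ± 0.11 at 144 h (adjusted p = 0.000115). GNAQ, the Gq alpha subunit, was 0.41, 0.33 and 0.35 higher at 48 h, 96 h and 144 h. Each of these calls was lost after cyclic loess normalization. The calls at 48 h and 96 h were lost without any of the 6 arrays of 0 h, 48 h and 96 h, and that at 144 h without any of the 8, with adjusted p up to 0.266. GNA14, of the Gq family, was 0.66 higher at 48 h only, a call lost without either 0 h array or without 48 h array 2 (adjusted p up to 0.101).

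Of 6 G beta and gamma subunits, 1 was higher and 1 lower at 48 h, 1 higher and none lower at 96 h, and 2 higher and 1 lower at 144 h. GNG10, a broadly expressed gamma subunit, measured 8.15 and 8.05 at 0 h, 9.09 and 8.79 at 48 h, 9.08 and 9.15 at 96 h, and 9.51 and 9.23 at 144 h. All 6 later arrays lay above the 0 h arrays, by a mean of 1.26 ± 0.15 at 144 h (adjusted p = 0.0003). GNB5, the beta subunit that pairs with RGS7 and its relatives, was 0.74 ± 0.13 higher at 144 h (adjusted p = 0.00323). GNG13, a gamma subunit of sensory cells, measured 3.58 and 3.56 at 0 h, 3.0 and 2.95 at 48 h, 3.69 and 3.72 at 96 h, and 3.04 and 2.96 at 144 h, so 2 of its 4 time means lay under the lower quartile. GNB3, GNG4 and GNG14 were not called against 0 h.

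**Figure D3:**
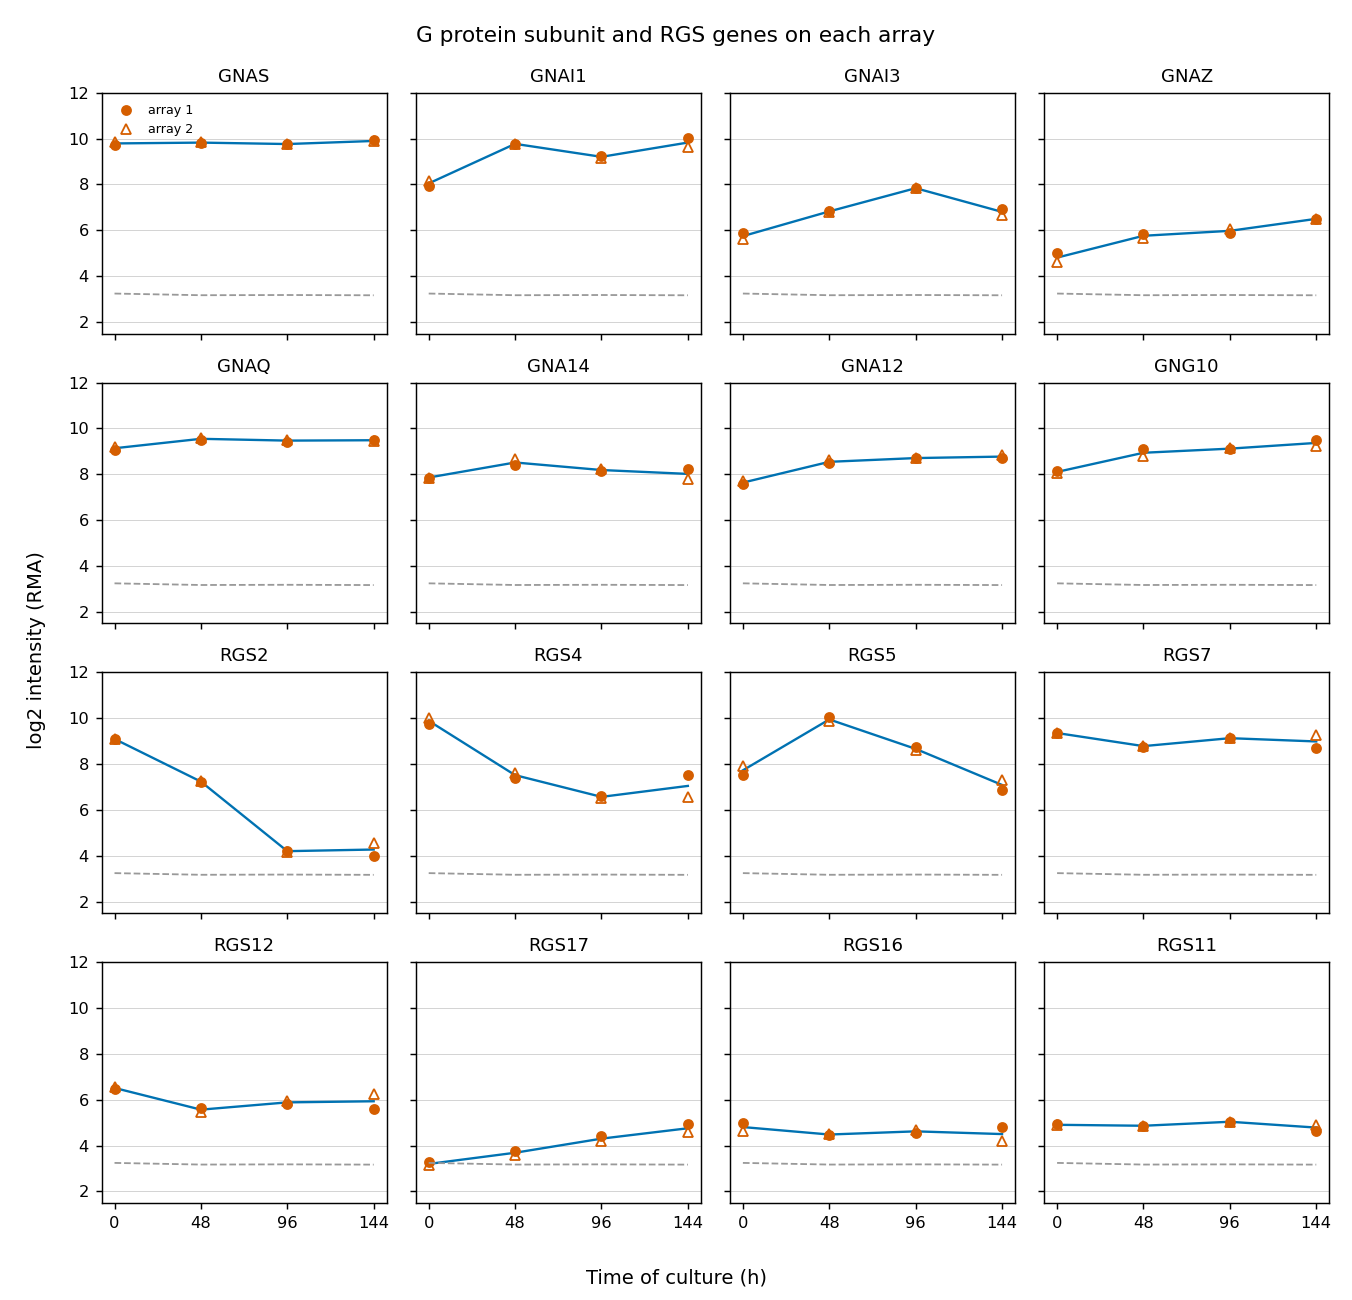
Log2 intensity on each array (filled circle, array 1; open triangle, array 2) against hours of culture for G protein subunit and RGS genes, 1 panel per gene, with the blue line through the time means and the dashed grey line at the mean lower quartile of the arrays. RGS2 and RGS4 lie lowest after 48 h, RGS5 peaks at 48 h with 10.03 and 9.86, and GNAI1, GNAI3 and GNAZ lie above their 0 h arrays at each later time.

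The RGS genes differed from each other in their time courses. Of 12 members, 2 were higher and 4 lower at 48 h, 2 higher and 3 lower at 96 h, and 1 higher and 3 lower at 144 h. RGS2, which accelerates GTP hydrolysis mainly on Gq alpha, measured 9.09 and 9.10 at 0 h, 7.21 and 7.26 at 48 h, 4.22 and 4.17 at 96 h, and 3.99 and 4.55 at 144 h. The time means thus fell in 2 steps, with differences of -1.86 ± 0.17 between 48 h and 0 h (adjusted p = 0.000115) and -3.03 ± 0.17 between 96 h and 48 h (adjusted p = 2.58e-05), and 144 h differed from 96 h by 0.07 ± 0.17 (adjusted p = 0.819). At 144 h it was 28.3-fold lower than at 0 h. RGS2 and LHCGR both had their larger fall between 48 h and 96 h, where LHCGR differed by -5.10 ± 0.28 (adjusted p = 2.21e-05).

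RGS4, which acts on Gi and Gq alpha subunits, measured 9.75 and 10.02 at 0 h, 7.41 and 7.63 at 48 h, 6.63 and 6.51 at 96 h, and 7.51 and 6.58 at 144 h. Its first step was the larger, -2.37 ± 0.27 at 48 h (adjusted p = 0.000346), and it was 9.96-fold lower at 96 h than at 0 h. The 144 h arrays stood 0.93 apart. RGS12, a multidomain scaffold with RGS activity, fell by 0.95 at 48 h and differed by -0.63 at 96 h. Its 48 h call was lost without 0 h array 2 or 48 h array 2 (adjusted p up to 0.0588), and its 96 h call without any of the 6 arrays of 0 h, 48 h and 96 h (adjusted p up to 0.183). RGS7, which works in a complex with GNB5, fell by 0.57 at 48 h, which was lost without any of those 6 arrays and with the mean of its 2 features (adjusted p up to 0.153).

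RGS5, a regulator of Gi and Gq known as a marker of pericytes and vascular smooth muscle, measured 7.53 and 7.92 at 0 h, 10.03 and 9.86 at 48 h, 8.72 and 8.60 at 96 h, and 6.86 and 7.31 at 144 h. It was 4.66-fold higher at 48 h and 1.91-fold higher at 96 h than at 0 h, and the 144 h arrays lay under both 0 h arrays. The difference of -0.64 ± 0.19 at 144 h (adjusted p = 0.0329) was lost as a call without 0 h array 2, either 96 h array or 144 h array 1 (adjusted p up to 0.199). Between 48 h and 144 h RGS5 fell by 2.86 ± 0.19 (adjusted p = 0.000146) under every setting tried. The other 9 measured fibroblast and smooth muscle markers, such as TAGLN and ACTA2, were higher at 144 h than at 0 h, and of all 10, 7 were higher and 1, RGS5, lower at 144 h than at 48 h.

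RGS17, which acts on Gi family subunits, had its highest mean at 144 h and measured 3.26 and 3.13 at 0 h, 3.77 and 3.60 at 48 h, 4.42 and 4.18 at 96 h, and 4.92 and 4.59 at 144 h. Its 0 h level lay under the lower quartile, and the later arrays lay above it in each step, with a difference of 1.56 ± 0.15 at 144 h (adjusted p = 0.000121). The 48 h call, at 0.49, was lost without any of the 6 arrays of 0 h, 48 h and 96 h (adjusted p up to 0.214). RGS10, RGS16 and RGS20 were not called at any time. The feature annotated RGS11, also not called, carries a gene identifier that RefSeq now gives to PDIA2, so its gene is uncertain. RGS18, expressed in platelets and leukocytes, and RGS21 lay under the lower quartile at all 4 times.

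Of 8 adenylyl cyclases, the enzymes that make cyclic AMP, 1 was higher and 2 lower at 48 h, 0 higher and 3 lower at 96 h, and 1 higher and 2 lower at 144 h. ADCY9, a widely expressed isoform with little response to forskolin, measured 7.25 and 7.23 at 0 h, 6.46 and 6.37 at 48 h, 5.84 and 5.85 at 96 h, and 5.97 and 6.38 at 144 h. It was lower at each later time, with differences of -1.39 ± 0.14 at 96 h (adjusted p = 0.000108) and -1.06 ± 0.14 at 144 h (adjusted p = 0.000696), or 2.09-fold at 144 h. Its second feature was also called lower at 96 h. ADCY6, which calcium and Gi inhibit, measured 8.42 and 8.28 at 0 h, 7.72 and 7.93 at 48 h, 7.90 and 7.83 at 96 h, and 7.70 and 8.12 at 144 h. The 6 later arrays lay under both 0 h arrays, but the calls of -0.52 at 48 h and -0.49 at 96 h were lost without any of the 6 arrays of 0 h, 48 h and 96 h (adjusted p up to 0.206), and the -0.44 at 144 h was not called (adjusted p = 0.0688).

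ADCY8, stimulated by calcium and calmodulin, measured 3.27 and 3.29 at 0 h, 5.69 and 5.95 at 48 h, 3.62 and 3.29 at 96 h, and 4.65 and 6.26 at 144 h. The 0 h arrays stood close to the lower quartile, the 96 h arrays near them, and the 48 h and 144 h arrays above both. The difference from 0 h was 2.54 ± 0.43 at 48 h (adjusted p = 0.00277), 0.18 at 96 h and 2.18 ± 0.43 at 144 h (adjusted p = 0.00513), while the 144 h arrays lay 1.60 apart.

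ADCY3 measured 5.95 and 5.99 at 0 h, 6.62 and 6.44 at 48 h, 4.86 and 4.82 at 96 h, and 4.88 and 5.88 at 144 h. This isoform, known for its part in olfactory signalling, was 3.22-fold lower at 96 h than at 48 h (-1.69 ± 0.27, adjusted p = 0.00255). Its call against 0 h, of -1.13 at 96 h, was lost without 0 h array 2 or either 96 h array (adjusted p up to 0.058). ADCY2, which G beta gamma stimulates, measured 3.80 and 3.0 at 0 h, 2.69 and 2.87 at 48 h, 3.70 and 3.54 at 96 h, and 2.64 and 2.57 at 144 h, with the 48 h and 144 h means under the lower quartile. Its call at 144 h was lost without 0 h array 1 or without any 96 h or 144 h array (adjusted p up to 0.121). ADCY1 and ADCY4 were not called, and ADCY10, the soluble cyclase that bicarbonate activates, lay under the lower quartile at all times. A feature listed for ADCY5 repeats that symbol and was left out.

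**Figure D4:**
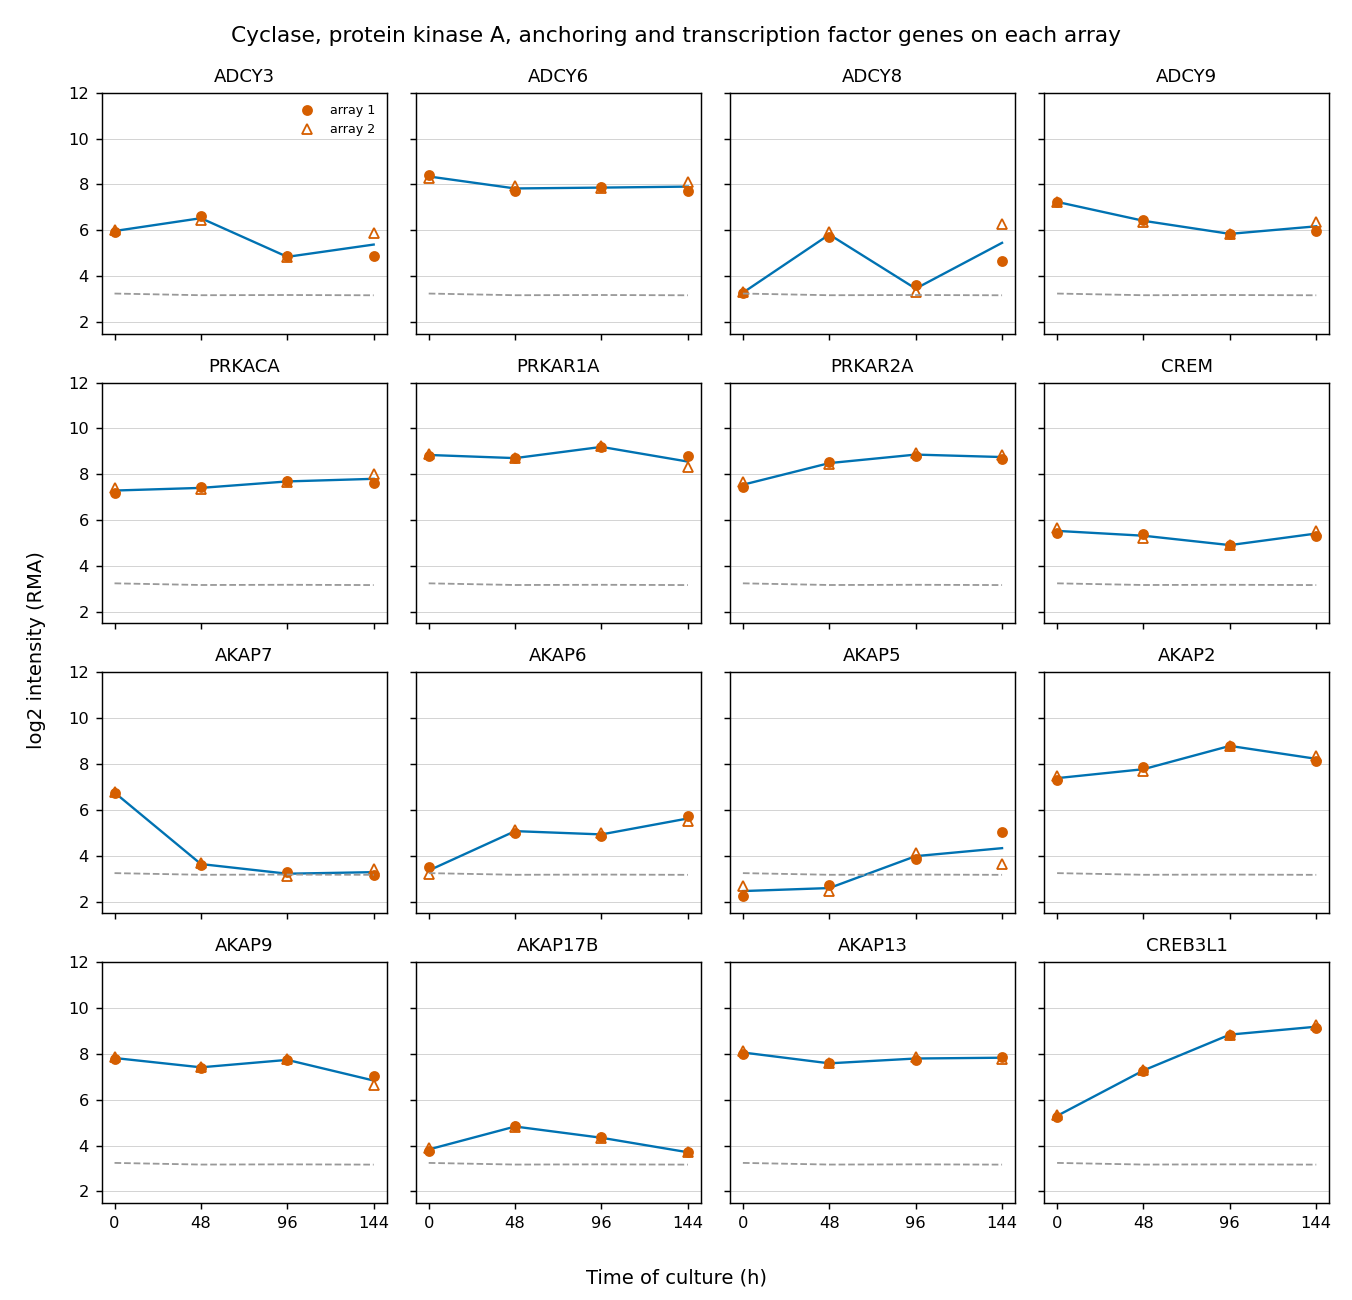
Log2 intensity on each array (filled circle, array 1; open triangle, array 2) against hours of culture for adenylyl cyclases, protein kinase A subunits, anchoring proteins, CREM and CREB3L1, with the blue line through the time means and the dashed grey line at the mean lower quartile. AKAP7 drops to 3.60 and 3.68 at 48 h and stays near the dashed line, CREB3L1 lies higher at each time, and the 144 h arrays of ADCY8 and AKAP5 stand far apart.

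The phosphodiesterase genes held deep falls as well as steep rises. PDE7B, specific for cyclic AMP, measured 8.95 and 8.87 at 0 h, 4.93 and 4.87 at 48 h, 4.40 and 4.50 at 96 h, and 4.67 and 4.99 at 144 h. The 0 h arrays stood far above all others, and the difference was -4.01 ± 0.13 at 48 h (adjusted p = 9.81e-07), 16.1-fold, and -4.08 ± 0.13 at 144 h (adjusted p = 4.41e-07). PDE7A, the other enzyme of that family, measured 5.46 and 5.80 at 0 h, 4.11 and 4.03 at 48 h, 3.57 and 3.55 at 96 h, and 3.93 and 4.13 at 144 h. Its differences from 0 h were -1.56 ± 0.14 at 48 h (adjusted p = 0.000105), -2.07 ± 0.14 at 96 h (adjusted p = 1.24e-05) and -1.60 ± 0.14 at 144 h (adjusted p = 6.84e-05). So both PDE7 genes had most of their fall by 48 h and differed by -0.07 and -0.04 between 144 h and 48 h, which was not called.

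PDE3A, whose enzyme hydrolyses cyclic AMP and is inhibited by cyclic GMP, measured 2.82 and 3.05 at 0 h, 5.67 and 5.59 at 48 h, 6.90 and 6.83 at 96 h, and 7.75 and 8.19 at 144 h. It lay under the lower quartile at 0 h and higher at each time than at the one before, with differences of 2.69 ± 0.16 between 48 h and 0 h (adjusted p = 1.19e-05), 1.24 ± 0.16 between 96 h and 48 h (adjusted p = 0.000906) and 1.10 ± 0.16 between 144 h and 96 h (adjusted p = 0.00246). The measured difference between 144 h and 0 h was 5.03, against a 0 h level not shown to lie above background. The enzyme is known as the main phosphodiesterase of the oocyte, and 7 of 8 measured oocyte markers were lower at each later time. The mean of the fibroblast and smooth muscle markers was higher at each later time, in values given above. The part of either shift in the PDE3A rise was not tested.

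PDE5A, specific for cyclic GMP and the target of sildenafil, measured 5.23 and 5.42 at 0 h, 8.82 and 8.56 at 48 h, 9.45 and 9.45 at 96 h, and 8.68 and 8.20 at 144 h. All later arrays lay far above 0 h, and the difference was 3.37 ± 0.17 at 48 h (adjusted p = 6.2e-06), 4.13 ± 0.17 at 96 h (adjusted p = 1.11e-06) and 3.12 ± 0.17 at 144 h (adjusted p = 5.67e-06). Those are 10.3-fold, 17.5-fold and 8.70-fold. A second PDE5A feature was also higher, by 3.54 at 48 h. Among the later times this second feature was not called, with differences of 0.26 between 96 h and 48 h and -0.26 between 144 h and 96 h. The enzyme is abundant in smooth muscle, and the mean of the fibroblast and smooth muscle markers was higher at all 3 times too, in values given above. Between 144 h and 96 h the first PDE5A feature differed by -1.01 ± 0.17 (adjusted p = 0.00522). The marker mean was 9.49 and 9.49 at 96 h and 10.01 and 9.91 at 144 h. The part of the marker shift in the PDE5A rise was not tested.

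**Figure D5:**
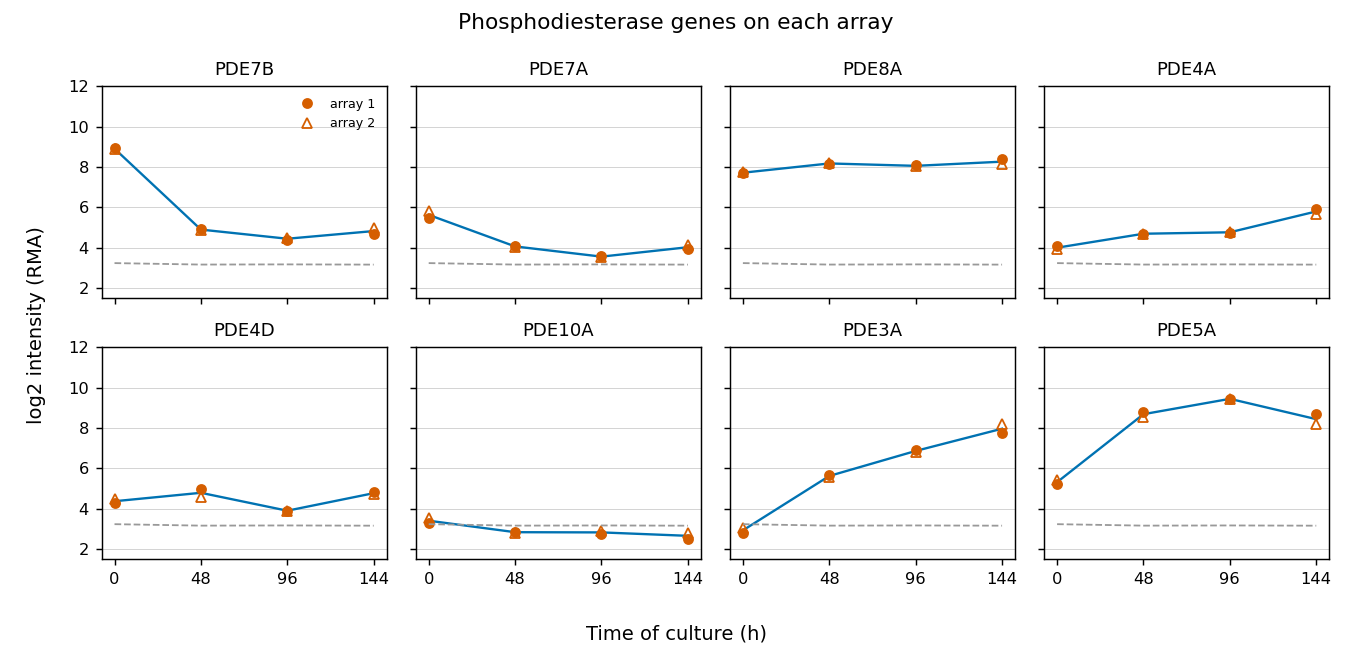
Log2 intensity on each array (filled circle, array 1; open triangle, array 2) against hours of culture for 8 phosphodiesterase genes, with the blue line through the time means and the dashed grey line at the mean lower quartile of the arrays. PDE7B and PDE7A lie lower after 0 h, PDE3A and PDE5A higher, and PDE4A is highest at 144 h with 5.93 and 5.67.

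The PDE4 genes encode the cyclic AMP-specific enzymes that rolipram inhibits, and their 4 members differed in course. PDE4A measured 4.07 and 3.94 at 0 h, 4.70 and 4.69 at 48 h, 4.74 and 4.80 at 96 h, and 5.93 and 5.67 at 144 h. It rose in a first step by 48 h and a second between 96 h and 144 h, where the difference was 1.03 ± 0.12 (adjusted p = 0.00105), and stood 3.47-fold above 0 h at 144 h. PDE4D, whose loss lowers fertility in female mice, measured 4.28 and 4.47 at 0 h, 5.00 and 4.59 at 48 h, 3.91 and 3.91 at 96 h, and 4.82 and 4.73 at 144 h. Between 48 h and 96 h it fell by 0.89 ± 0.15 (adjusted p = 0.00351), while its difference of -0.47 between 96 h and 0 h was lost as a call without either 0 h or either 96 h array (adjusted p up to 0.195). PDE4B, at levels of 3.10 to 4.01, was not called in any comparison, and PDE4C lay under the lower quartile at all times.

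PDE8A, which has a high affinity for cyclic AMP, was 0.46 higher at 48 h and 0.55 higher at 144 h. Those calls were lost without any of the 6 arrays of 0 h, 48 h and 96 h at 48 h (adjusted p up to 0.105) and without 0 h array 1 at 144 h (adjusted p up to 0.0562). PDE10A, which hydrolyses both nucleotides, measured 3.30 and 3.53 at 0 h and 2.52 to 2.91 on the later arrays, which lay under the lower quartile. Over the 7 cyclic AMP-specific genes, 2 were higher and 2 lower at 48 h, 1 and 3 at 96 h, and 2 and 2 at 144 h. Of 4 genes for enzymes of both nucleotides, PDE3A was the 1 higher and PDE10A the 1 lower at each time, and of 4 cyclic GMP-specific ones, PDE5A was the 1 higher. PDE11A, PDE1C and the photoreceptor genes PDE6A and PDE6C lay under the lower quartile at all times.

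Of the 3 protein kinase A subunit genes measured, the type II regulatory subunit was higher at each later time, and the others had smaller differences from 0 h. PRKAR2A measured 7.43 and 7.66 at 0 h, 8.52 and 8.45 at 48 h, 8.81 and 8.90 at 96 h, and 8.68 and 8.82 at 144 h. The later arrays all lay above 0 h, with differences of 0.94 ± 0.12 at 48 h (adjusted p = 0.000769), 1.31 ± 0.12 at 96 h (adjusted p = 6.85e-05) and 1.21 ± 0.12 at 144 h (adjusted p = 0.000156). PRKAR1A, the type I regulatory subunit, measured 8.79 and 8.89 at 0 h, 8.69 and 8.72 at 48 h, 9.17 and 9.21 at 96 h, and 8.78 and 8.32 at 144 h, and was not called against 0 h. It differed by 0.49 between 96 h and 48 h (adjusted p = 0.0455) and by -0.64 between 144 h and 96 h (adjusted p = 0.0205). Both of these calls were lost without either 96 h array. PRKACA, a catalytic subunit, measured 7.19 and 7.39 at 0 h and 7.60 and 8.0 at 144 h. Its difference of 0.51 ± 0.15 at 144 h (adjusted p = 0.0332) was lost without any of the arrays of 0 h, 48 h and 96 h or without 144 h array 2 (adjusted p up to 0.175). PRKACB and PRKAR2B were not analysed here.

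The anchoring proteins split. Of 12 members, 2 were higher and 3 lower at 48 h, 5 higher and 2 lower at 96 h, and 4 higher and 3 lower at 144 h. AKAP7, a membrane-bound anchor studied in heart and epithelia, measured 6.72 and 6.79 at 0 h, 3.60 and 3.68 at 48 h, 3.30 and 3.14 at 96 h, and 3.14 and 3.43 at 144 h. It differed from 0 h by -3.12 ± 0.13 at 48 h (adjusted p = 2.59e-06) and by -3.47 ± 0.13 at 144 h (adjusted p = 8.47e-07), to levels near the lower quartile. AKAP6, an anchor of the nuclear envelope in heart muscle cells, measured 3.51 and 3.20 at 0 h, 5.01 and 5.14 at 48 h, 4.86 and 5.00 at 96 h, and 5.74 and 5.51 at 144 h. It rose by 1.72 ± 0.15 at 48 h (adjusted p = 7.4e-05) and by 2.27 ± 0.15 at 144 h (adjusted p = 1.19e-05).

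AKAP2 measured 7.28 and 7.49 at 0 h, 7.87 and 7.68 at 48 h, 8.78 and 8.80 at 96 h, and 8.12 and 8.34 at 144 h. This anchor of the actin cytoskeleton was 2.65-fold higher at 96 h and 1.79-fold higher at 144 h. AKAP5, which holds the kinase together with calcineurin and protein kinase C, measured 2.24 and 2.68 at 0 h, 2.74 and 2.44 at 48 h, 3.86 and 4.11 at 96 h, and 5.04 and 3.62 at 144 h. The 0 h and 48 h arrays lay under the lower quartile and the 144 h arrays 1.41 apart. Its rise of 1.87 ± 0.40 at 144 h (adjusted p = 0.00739) was lost without 0 h array 1 (adjusted p up to 0.058), and its rise of 1.52 at 96 h without 0 h array 1 or either 96 h array (adjusted p up to 0.0962).

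AKAP9, a large scaffold of the Golgi and centrosome, measured 7.78 and 7.85 at 0 h, 7.40 and 7.42 at 48 h, 7.71 and 7.76 at 96 h, and 7.04 and 6.63 at 144 h. Against 0 h it was called only at 144 h, where it fell by 0.98 ± 0.15 (adjusted p = 0.00118). AKAP17B measured 3.78 and 3.87 at 0 h, 4.84 and 4.82 at 48 h, 4.36 and 4.32 at 96 h, and 3.71 and 3.70 at 144 h. It was highest at 48 h, 2.00-fold above 0 h, and back near its 0 h level at 144 h. A second AKAP17B feature was 1.41-fold higher at 48 h and was not called against 0 h at 96 h or 144 h. The AKAP17B call of 0.51 at 96 h was lost with the mean of the gene's features (adjusted p = 0.223). AKAP8L, a nuclear protein, was lower at each later time, with differences of -0.53, -0.69 and -0.70. Its 48 h call was lost without 0 h array 2, 48 h array 1 or either 96 h array (adjusted p up to 0.169), and its 144 h call without 0 h array 2 (adjusted p up to 0.0514). AKAP13 fell by 0.47 at 48 h, a call lost without 0 h array 2 or either 48 h array (adjusted p up to 0.0861). AKAP11 was 0.46 higher at 96 h and 0.40 at 144 h, lost without either 0 h array at both times (adjusted p up to 0.125 and 0.128). At 96 h that call was also lost without 96 h array 2, and at 144 h without either 96 h array or 144 h array 2. AKAP3 and AKAP4, anchors of the sperm tail, and AKAP8 were not called, and AKAP12 was not analysed here.

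At the level of transcription factors, CREM measured 5.42 and 5.64 at 0 h, 5.40 and 5.24 at 48 h, 4.91 and 4.91 at 96 h, and 5.33 and 5.50 at 144 h. This gene, which gives rise to activating and repressing forms that the feature does not separate here, fell by 0.62 ± 0.13 at 96 h against 0 h (adjusted p = 0.00483). The single feature of CREB1 lay under the lower quartile at all times, between 2.34 and 2.63, so no change of CREB1 could be read here. The CREB3 genes encode factors held in the endoplasmic reticulum or Golgi membrane until they are cleaved, and share a DNA-binding family with CREB rather than its place downstream of cyclic AMP.

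CREB3L1, of that family, measured 5.26 and 5.33 at 0 h, 7.23 and 7.32 at 48 h, 8.84 and 8.84 at 96 h, and 9.12 and 9.25 at 144 h. It was higher at every later time, by 1.98 ± 0.11 at 48 h (adjusted p = 8.05e-06), 3.54 ± 0.11 at 96 h (adjusted p = 3.09e-07) and 3.89 ± 0.11 at 144 h (adjusted p = 2.52e-07), 14.8-fold at 144 h. In mouse osteoblasts its product acts on the type I collagen gene, and COL1A1 had mean levels of 6.10, 8.96, 11.86 and 12.07 at the 4 times here. COL1A1 is also on the list of fibroblast and smooth muscle markers, whose mean was higher at each later time. A link between CREB3L1 and COL1A1 was not tested. CREB3 was 0.62 higher at 48 h, a call lost without 0 h array 1 or 48 h array 1 (adjusted p up to 0.064). CREB3L4 fell by 0.79 at 96 h, a call lost without 0 h array 2 or 96 h array 1 (adjusted p up to 0.0844). CREB3L2 and CREB3L3 were not called.

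Genes known as targets of cyclic AMP signalling in the follicle were read from a list of 26, of which 13 were measured. NR4A1, FOS, STAR, CYP19A1 and CYP11A1 were among those not analysed here. Of the 13, 3 lay under the lower quartile at all times. None of the 13 was higher and 7 were lower at 48 h, 2 were higher and 7 lower at 96 h, and none was higher and 7 were lower at 144 h. Of all features, 14.8%, 22.3% and 16.7% were lower at these times, and 15.2%, 19.0% and 15.4% higher. The median differences of the 13 were -0.80, -0.89 and -1.12 beside -0.04, -0.03 and -0.05 over all features. LHCGR was the 1 with the largest fall, followed at 144 h by INHBA (-2.29), the inhibin beta A subunit, EGR1 (-1.91), an immediate early factor, and BTC (-1.83), the growth factor betacellulin. LHCGR and INHBA are also on the granulosa marker list. AREG, EREG and PTGS2, which the ovulatory surge induces, had time means of 2.27 to 3.27 and were not called against 0 h, while AREG was lower at 96 h and at 144 h than at 48 h (-0.50 and -0.67, adjusted p = 0.0266 and 0.0197), from and to levels under the lower quartile.

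Other effectors and handlers of cyclic AMP, 12 measured of 23, were 2 higher and 2 lower at 48 h, 3 higher and 5 lower at 96 h, and 3 higher and 2 lower at 144 h. PKIA, an inhibitor peptide of the protein kinase A catalytic subunit, was 1.77 higher at 144 h. BVES, a membrane protein that binds cyclic AMP, was 1.85 higher, from a 0 h mean of 2.92 under the lower quartile. ABCC4, a pump that exports cyclic AMP, was 0.86 higher, and HCN2, a cyclic nucleotide-gated channel, fell by 0.85. Of 11 measured genes of receptor desensitisation, of 19 listed, 0 were higher and 2 lower at 48 h, 3 higher and 4 lower at 96 h, and 1 higher and 2 lower at 144 h. The arrestins ARRB1 and ARRB2 differed by -0.93 and -0.51 at 144 h, and the receptor kinase GRK3 was 0.48 higher.

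The name rule also caught 6 subunits of AMP-activated kinase, an energy sensor that responds to AMP and not to cyclic AMP. Of these, 3 were higher at 48 h, 3 higher and 1 lower at 96 h, and 5 higher at 144 h. PRKAA1, a catalytic subunit, measured 6.05 and 5.95 at 0 h, 7.19 and 6.95 at 48 h, 7.29 and 7.20 at 96 h, and 7.12 and 6.64 at 144 h, which was 2.10-fold, 2.37-fold and 1.84-fold above 0 h. The other catalytic subunit gene, PRKAA2, measured 5.34 and 5.65 at 0 h, 6.15 and 6.11 at 48 h, 6.71 and 6.71 at 96 h, and 6.39 and 6.32 at 144 h. Both catalytic genes were therefore higher at every later time. The beta subunit gene PRKAB1 was 0.96 ± 0.12 higher at 144 h (adjusted p = 0.000487), and PRKAB2 0.77 ± 0.13 (adjusted p = 0.00265). PRKAG1, a gamma subunit, fell by 0.79 ± 0.11 at 96 h (adjusted p = 0.000488) and was not called at the other times (-0.20 and -0.14). PRKAG3, known from pig muscle glycogen, was 0.78 ± 0.15 higher at 144 h (adjusted p = 0.00533).

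A further pair match by name but belong elsewhere. PDE12, which trims RNA tails in mitochondria, measured 4.53 and 4.17 at 0 h, 5.28 and 5.25 at 48 h, 5.80 and 5.88 at 96 h, and 5.23 and 4.92 at 144 h. It was higher at each later time, 2.81-fold at 96 h, and its call at 144 h was lost without 0 h array 2 (adjusted p up to 0.0598). GNB1L, a WD-repeat protein, differed by -0.42, -0.58 and -0.43 at 48 h, 96 h and 144 h. All 3 of its calls were lost without 0 h array 1, and those at 48 h and 144 h under 11 and 12 of the 16 settings tried (adjusted p up to 0.24). A second GNB1L feature was called lower at all 3 times, with differences of -0.51, -0.80 and -0.54 (adjusted p = 0.00697, 0.000415 and 0.00469).

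The 96 h arrays stood apart from both neighbours in time for 13 members. Of the 79, 7 (8.86%) were called higher at 96 h than at both 48 h and 144 h, beside 7.34% of all features, and 6 (7.59%) lower than at both, beside 9.13%. The 7 were ADCY2, AKAP2, GNAI3, GNG13, PDE12, PDE5A and PRKAR1A, and the 6 were ADCY8, CREM, GNAI1, PDE4D, PRKAB2 and PRKAG1. These shares lie near the background. GNAI1 and GNAI3, the pair of inhibitory alpha subunits, went opposite ways, with differences of -0.57 for GNAI1 and 1.01 for GNAI3 between 96 h and 48 h. GNAI3, GNG13, PDE4D and PRKAG1 kept both of their calls under every setting tried, and the other 9 lost at least 1. The GNAI1 call against 48 h was lost without any 48 h or 96 h array (adjusted p up to 0.14), as were those of ADCY2 and PDE12 (adjusted p up to 0.155 and 0.145).

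Between later times fewer members were called. At 96 h against 48 h, 13 were higher (16.5%, against 13.4% of all features) and 17 lower (21.5%, against 16.0%), and leaving out 1 of the 48 h or 96 h arrays gave 5 to 8 higher and 6 to 8 lower. At 144 h against 96 h, 11 were higher (13.9%, against 12.1%) and 10 lower (12.7%, against 10.1%), and without 96 h array 1 these were 5 and 5, and without 96 h array 2, 5 and 6. At 144 h against 48 h, 6 were higher (7.59%, against 4.32% of all features) and 5 lower (6.33%, against 4.32%). Leaving out 144 h array 1 gave 11 higher and leaving out 144 h array 2 gave 8 lower, while leaving out any single array of the earlier times gave 3 lower. The 6 higher at 144 h than at 48 h were PDE3A (2.34), CREB3L1 (1.91), AKAP5 (1.74), PDE4A (1.10), RGS17 (1.07) and GNAZ (0.74). The 5 lower were RGS2 (-2.96), RGS5 (-2.86), ADCY3 (-1.15), AKAP17B (-1.12) and AKAP9 (-0.58). Of these, AKAP5, ADCY3 and AKAP9 lost their call without any single array of 0 h, 48 h and 96 h (adjusted p up to 0.166, 0.194 and 0.208).

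Of the 79 genes, 60 had time means above the lower quartile throughout, 9 fell under it at 1 to 3 times and 10 lay under it at all 4. Those 10 were ADCY10, PDE4C, PDE11A, PDE1C, PDE6A, PDE6C, GNAT3, the taste cell alpha subunit, RGS18, RGS21 and CREB1, and the F test called 0 of them (adjusted p from 0.174 to 0.972). Among the 50 members that the F test called, the time of the highest mean was 0 h for 15, 48 h for 9, 96 h for 12 and 144 h for 14. The lowest mean was at 0 h for 26, at 48 h for 3, at 96 h for 14 and at 144 h for 7. In all, 26 of the 79 were not called in any of the 6 pairwise comparisons. The counts by time of highest or lowest mean, and of genes never called, were not made over all features.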

How the data were processed

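Total RNA of porcine granulosa cells was hybridised to 8 Affymetrix whole-transcript arrays, 2 at each of 4 times. The deposited table holds log2 intensities that the authors made by RMA (robust multi-array averaging), per the submitters' processing notes. The program used for it is not given in the sources used here. RMA brings the probe values of all arrays to 1 distribution, which can remove a shift common to most transcripts. The summarised features still differed slightly between arrays in their medians and quartiles. The table's 27558 features were used with no further normalization or filter. Groups came from the labelled time. Platform annotation gave 11735 features 1 symbol, 612 several and 15211 none, and only the first kind was named. Of the 79 members, 72 have the same symbol in RefSeq by gene identifier, 6 have no match and 1, RGS11, has another symbol.

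All features were fitted by lmFit and eBayes of limma 3.58.1 (R 4.3.3), with a mean for each time (degrees of freedom: 4 residual, 3.98 prior). Tests were two-sided and moderated, adjusted by the Benjamini-Hochberg method over 27558 features within a comparison, and called below 0.05. The median SE of a difference was 0.143, and 2 arrays per time limit the precision. The fit was tested on simulated data. Arrays were also compared after median centring and cyclic loess, without dim features (those that passed the 40th percentile on fewer than 2 arrays), with eBayes trend and robust, with only the 4 arrays compared, with the replicate number as a block, with the mean of a gene's features, and without each array.

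Members, pathway lists and marker lists were chosen with earlier results of these data known. Values per array are given for the called members with the 10 largest rises and the 10 largest falls per time, the 3 called members per role with the largest range, 5 each way between later times, and RGS2, PDE4B, PDE4D, CREM, GNAS, PRKAR1A and ADCY9, in part as ranges. Of each pathway list, up to 4 called members with the largest change at 144 h are named. No sequences were used.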

Additional observations from a re-analysis of the deposited data

How the results depend on the processing

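Of the 176 calls of a member in a comparison, 108 held under every other setting in which they could be computed, which were 14 to 16, and 68 were lost under at least 1, of which 67 by leaving out a single array. None changed direction. Of the 83 calls with a difference of at least 2-fold, 75 held under every setting. An array left alone at its time is assumed to vary like those of the other times. Leaving out single arrays gave 17 to 26 members higher and 8 to 17 lower at 48 h against 0 h, 19 to 26 and 10 to 18 at 96 h, and 21 to 25 and 10 to 17 at 144 h. The same gave 5 to 17 higher and 6 to 18 lower at 96 h against 48 h, 5 to 16 and 5 to 13 at 144 h against 96 h, 4 to 11 and 3 to 8 at 144 h against 48 h, and 36 to 55 changed by the F test. A fit to only the 4 arrays compared called 7 members higher at 144 h against 96 h and 3 lower at 144 h against 48 h, and a fit without the 96 h arrays, chosen after seeing the data, also gave 3. The smaller number of arrays enters all of these fits. The filter on dim features kept 18019 features and 58 members. The main fit did not pair arrays by replicate number. The deviations of replicate 1 from the time means, over all features, correlated at -0.0382 to 0.188 for the 6 pairs of times. These values cannot exclude that arrays of equal number share a source, since a shared effect may be small beside the spread between arrays. With the replicate block, 23 members were higher and 15 lower at 48 h, 22 and 16 at 96 h, 25 and 13 at 144 h against 0 h, and 7 calls were lost, at adjusted p of 0.0511 to 0.063.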
